A study of Mus musculus with 3 samples.

Results

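The genes described here encode the proteins of the mitochondrial ribosome. They are the 78 genes, of 32285 counted, whose symbol starts with Mrpl or Mrps and a number, and the rule used no measured value. Mrpl stands for the large subunit in 49 of the symbols and Mrps for the small subunit in 29. The cells were mouse embryonic stem cells of the E14 line (129/Ola background), kept in medium with serum and leukemia inhibitory factor. Cycloheximide, at 250 µg/mL in ethanol, was added 24 h after seeding for 3 h in 1 library and for 6 h in another, and the control library came from cells given ethanol alone for 6 h. Each condition is a single library of single-cell RNA sequencing (10x Genomics 3' v3), and the 3 h library has no ethanol control of its own time. A single library per condition allows no test, so every difference below describes these libraries. The 95% intervals are exact and cover counting error only.

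Mitochondria carry their own ribosomes, which translate the few mRNAs encoded by mitochondrial DNA, all of them for subunits of the respiratory chain and ATP synthase. The ribosomal RNAs come from mitochondrial DNA, but every protein of the mitochondrial ribosome is encoded in the nucleus, made by cytosolic ribosomes and imported. Some of the proteins have bacterial homologues, a reminder of the bacterial origin of the organelle, and the others arose later and are specific to mitochondria. Cycloheximide stops elongation on cytosolic ribosomes and leaves mitochondrial ribosomes working, so new copies of these proteins can hardly be made in treated cells. The data are mRNA levels and hold no measure of protein.

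The libraries held 2187 (control), 1739 (3 h) and 2554 (6 h) barcodes with at least 15000 unique molecular identifiers (UMIs, 1 for each captured RNA molecule) and 1 to 20% of them from mitochondrially encoded genes. Median UMIs per kept barcode ran from 43160 to 51726. At most 3 barcodes were shared by any 2 libraries. All 8 stem cell markers examined, among them Pou5f1, Sox2 and Nanog, were present in every library, with a summed level between 6581 and 7519 CPM (counts scaled to the same UMI total in each library). Markers of endoderm (4 genes), mesoderm (3 genes), neural cells (2 genes), feeder fibroblasts (5 genes) and 2-cell-like cells (3 genes) summed to between 0 and 14.4 CPM per list in every library. In the control library 62 barcodes with under 1% mitochondrially encoded UMIs were left out by the rule, against 1 barcode at 3 h and 8 at 6 h. In those 62 barcodes the 78 genes summed to 13895 CPM, against 9958 CPM in the kept control barcodes. The family medians with such barcodes included are given below.

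All 78 genes were detected well. The least detected had 3443 UMIs in the control library, and the full width of the interval of a log2 ratio lay between 0.04 and 0.13. Together they held 9958, 10091 and 10729 CPM in the control, 3 h and 6 h libraries, that is 0.996%, 1.01% and 1.07% of all UMIs. The control sum leaves out the 62 barcodes of low mitochondrial share, which held more, so the order of control and 3 h depends on that rule. The family as a whole thus held nearly the same share of the transcriptome in the 3 libraries, while single members differed in both directions. Per barcode the same sums were 507, 620.0 and 589 UMIs, so the order of the treated libraries depended on whether levels were scaled to the total or to the barcode. A level per cell and a share of all RNA cannot be told apart without a spiked standard, and fewer molecules of other genes give the same CPM difference as more molecules of these.

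Each mitochondrial ribosome holds 1 copy of nearly every protein, but the mRNA levels were far from equal. The 3' chemistry counts 1 tag per molecule, so CPM needs no division by transcript length. In the control library the levels ran from 30.9 to 391 CPM with a median of 107 CPM, a 12.6-fold range. The genes kept their rank in the treated libraries, with a Spearman rho across the 78 genes of 0.94 between control and 3 h and 0.88 between control and 6 h. These are across genes of 1 family and share the control library, and genes are not independent replicates.

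The 5 genes with the highest mean level showed both directions. Mrpl15 was at 391, 383 and 338 CPM in control, 3 h and 6 h, and Mrpl18 at 383, 321 and 353 CPM. Mrpl20 was at 305, 323 and 372 CPM, and Mrps16 at 257, 304 and 381 CPM. These 4 encode homologues of bacterial L15, L18, L20 and S16, core proteins that bind ribosomal RNA. Mrpl34, for a small protein of the large subunit, was at 343, 284 and 259 CPM. In the control Mrpl15 was the highest of all 78 genes, whereas at 6 h Mrps16 stood above Mrpl15.

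At 3 h the median log2 ratio of the 78 genes to control was 0.06 (quartiles -0.11 and 0.20), and over all 7608 genes whose mean level was 10 CPM or more it was 0.11. A gene was called higher or lower when its log2 ratio passed 0.32 in that direction. Called higher were 14 of the 78 genes (17.9%), against 29.5% of all genes tested. Called lower were 4 of the 78 (5.13%), against 8.33% of all genes. Both shares lay below the background. Counting error was small beside these values, and the interval of the ratio held 0 for 8 of the 78 genes. With the 62 control barcodes of low mitochondrial share included, the median was -0.00392.

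At 6 h the median log2 ratio was 0.13 (quartiles -0.11 and 0.34), against 0.17 over all genes tested. Called higher were 23 genes (29.5%), with a background of 37.9%, and 9 (11.5%) were called lower, with a background of 15.9%. Past 1.5-fold, 10 genes were higher (background 22.1%) and 3 lower (background 7.79%). The spread between the quartiles was 0.44 for the family and 0.68 for all genes tested, and at 3 h it was 0.30 and 0.47. The median of the family was 0.05 below that of all genes at 3 h and 0.04 below it at 6 h on the log2 scale. With no limits on the mitochondrially encoded share, the 6 h median was 0.08, against 0.18 over all genes tested. Without those limits the differences were -0.13 and -0.10. Over genes of 50 CPM or more they were 0.0032 and 0.022.

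**Figure D1:**
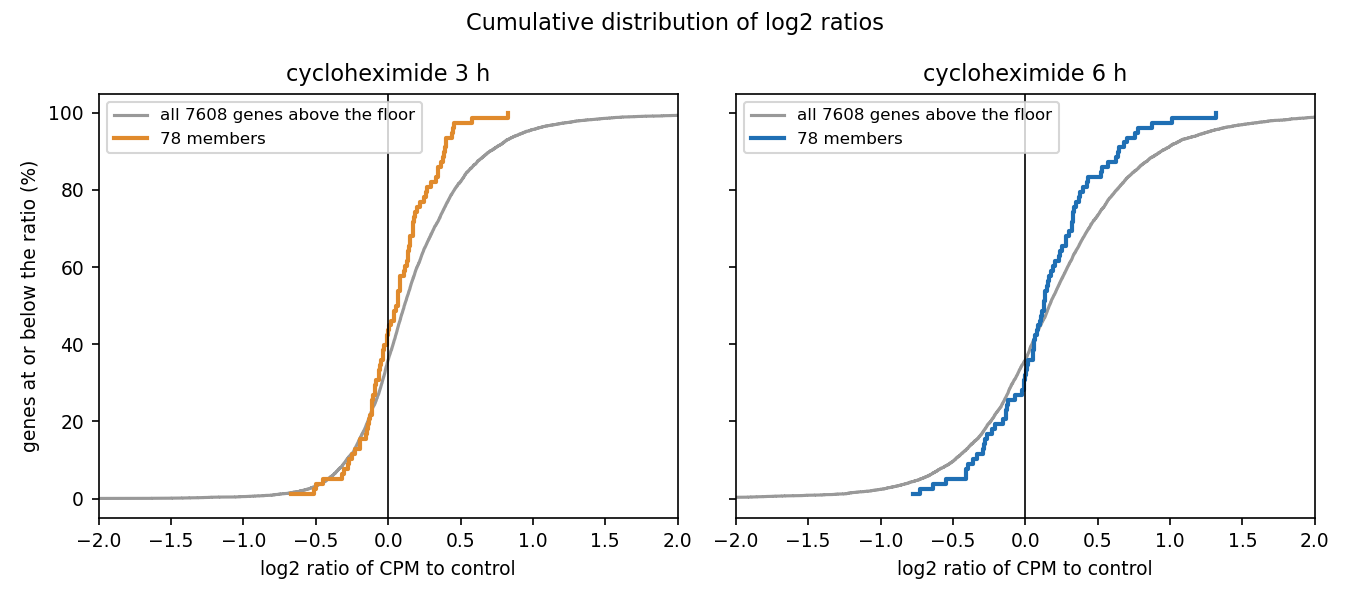
Cumulative share of genes (%) at or below each log2 ratio of CPM to control at 3 h (left) and 6 h (right), for the 78 mitochondrial ribosomal protein genes (coloured) and the 7608 genes whose mean level was 10 CPM or more (grey). The coloured curves are steeper, with quartiles 0.30 apart at 3 h and 0.44 apart at 6 h against 0.47 and 0.68 for all genes.

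The sign of most small ratios depended on the scaling. CPM put the median of all genes at 0.11 (3 h) and 0.17 (6 h). TMM factors, which trim genes of extreme ratio before they scale a library, put it at -0.06 and -0.12, and mean UMIs per barcode put it at 0.38 and 0.27. The family moved with it, to medians of -0.11 and -0.16 under TMM and 0.33 and 0.24 per barcode. Under TMM, 2 members were called higher and 13 lower at 3 h (background 18% and 19.4%), and at 6 h 10 were higher and 21 lower (background 21.1% and 33.6%). Per barcode, 40 were called higher and 1 lower at 3 h (background 57.7% and 2.1%), and at 6 h 30 were higher and 4 lower (background 46.1% and 12%). The order of the genes does not depend on the scaling, since a scaling shifts every ratio by 1 constant, so the text turns on the genes at both ends.

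**Figure D2:**
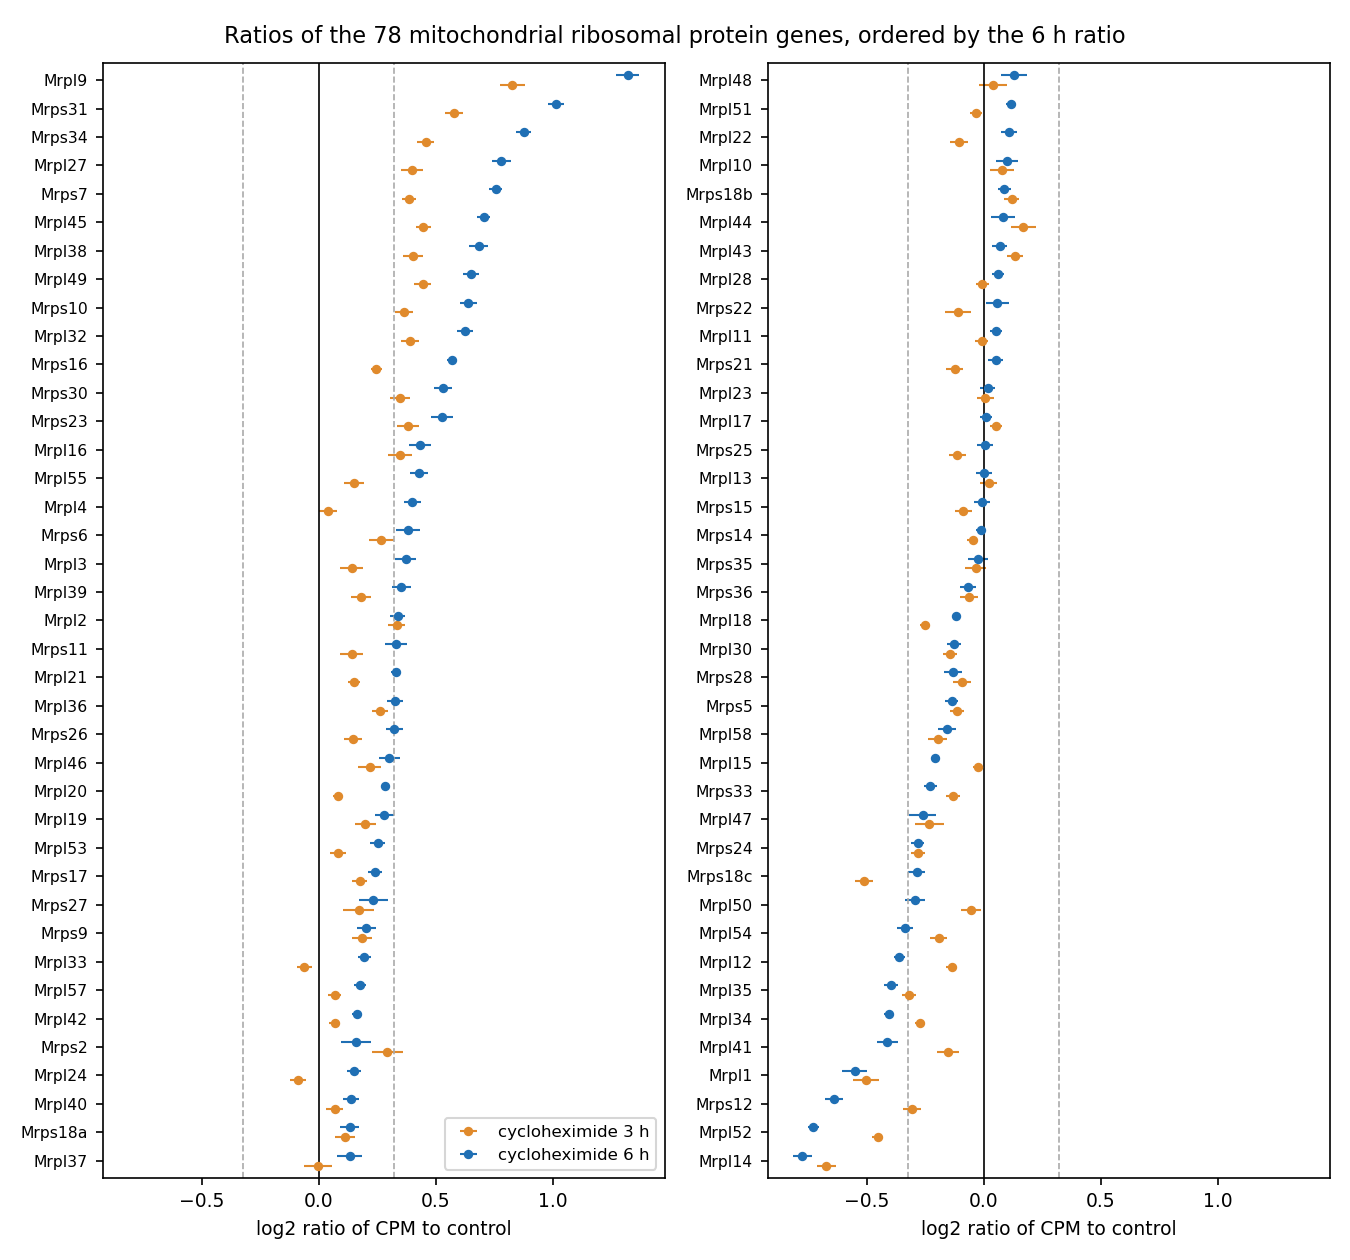
Log2 ratio of CPM to control for each of the 78 genes at 3 h (orange) and 6 h (blue), ordered by the 6 h ratio and continued in the right panel, with 95% exact intervals for counting error as bars and dashed lines at a log2 ratio of 0.32 in each direction. The 6 h ratios run from 1.32 for Mrpl9 to -0.77 for Mrpl14.

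Mrpl9 was the gene with the highest ratio. It lies at chr3:94443318-94451130 (GRCm38, plus strand) and encodes the homologue of bacterial L9, a protein at the base of the L1 stalk of the large subunit. The control library had 40.1 CPM, the 3 h library 71.2 CPM and the 6 h library 100.1 CPM. The log2 ratio to control was 0.83 (interval 0.77 to 0.88) at 3 h and 1.32 (1.27 to 1.37) at 6 h, a 2.49-fold difference, and between 6 h and 3 h it was 0.49 (0.45 to 0.53). Of all genes tested, 95.6% had a lower 6 h ratio. In the control it was among the least abundant members and at 6 h it was near the middle of the family, its part of the summed CPM being 0.403% and 0.933%. Mrpl9 also stood out in droplets without a cell. In barcodes of 10 to 100 UMIs, which hold free RNA, its level was 65.6, 119 and 158 CPM in the 3 libraries, 1.58 to 1.67 times its level in kept barcodes, whereas the median member was at 0.75 to 0.82 times. No other member passed 1.26 times in any library.

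The next genes are 2 mitochondria-specific proteins of the small subunit. Mrps31 (chr8:22411361-22429665, plus strand) was at 85.6, 128 and 173 CPM in control, 3 h and 6 h. Its log2 ratio was 0.58 (0.54 to 0.61) at 3 h and 1.01 (0.98 to 1.05) at 6 h. Mrps34 (chr17:24895116-24897502, plus strand) encodes a protein needed for a stable small subunit. It was at 99.98, 137 and 183 CPM, with a log2 ratio of 0.46 (0.42 to 0.49) at 3 h and 0.87 (0.84 to 0.91) at 6 h. Exons of Mrps34 overlap Nme3 on the same strand, so reads of the pair may be split or lost in counting, and Nme3 was listed at 1.74, 2.19 and 4.10 CPM.

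Mrpl27, Mrps7 and Mrpl45 complete the 6 highest. Mrpl27 encodes the homologue of bacterial L27, which reaches toward the peptidyl transferase centre, and was at 63.2, 83.3 and 108 CPM. Mrps7, whose bacterial homologue S7 starts the assembly of the head of the small subunit, was at 135, 176 and 228 CPM. Mrpl45, at the exit of the peptide tunnel where the ribosome meets the inner membrane, was at 133, 182 and 217 CPM. Their log2 ratios at 6 h were 0.78 (Mrpl27), 0.76 (Mrps7) and 0.70 (Mrpl45), and in all 3 the 3 h library lay between control and 6 h. The other genes past 1.5-fold at 6 h, named after their values were seen, were Mrpl38 (log2 ratio 0.68), Mrpl49 (0.65), Mrps10 (0.64) and Mrpl32 (0.62).

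At the other end, Mrpl14 had the lowest ratio. It lies at chr17:45686322-45698495 (plus strand) and encodes the homologue of bacterial L14, a protein of the subunit interface that is also a docking site for assembly factors. The 3 libraries had 110.1, 69.1 and 64.4 CPM. The log2 ratio to control was -0.67 (-0.71 to -0.63) at 3 h and -0.77 (-0.81 to -0.73) at 6 h, so most of the difference was already there at 3 h. Of all genes tested, 4.42% had a lower 6 h ratio.

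Mrpl52 and Mrps12 were lower at each later time. Mrpl52 (chr14:54426909-54429756, plus strand), for a mitochondria-specific protein of the large subunit, was at 298, 217 and 179.6 CPM, with a log2 ratio of -0.45 (-0.48 to -0.43) at 3 h and -0.73 (-0.75 to -0.70) at 6 h. Mrps12 (chr7:28739641-28741820, minus strand) encodes the homologue of bacterial S12, the protein at the decoding centre. It was at 111, 89.4 and 71.0 CPM, with a log2 ratio of -0.31 (-0.35 to -0.27) at 3 h and -0.64 (-0.68 to -0.60) at 6 h. Mrpl14, Mrpl52 and Mrps12 were the 3 members more than 1.5-fold lower at 6 h.

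Mrpl1, for the homologue of the L1 stalk protein, was at 55.7, 39.4 and 38.1 CPM, which is a difference at 3 h with none beyond counting error after it (log2 ratio of 6 h to 3 h -0.05, interval -0.11 to 0.01). Mrpl41, a mitochondria-specific protein of the large subunit, was at 71.1, 64.0 and 53.5 CPM, and its larger step came after 3 h. The log2 ratios to control at 6 h were -0.55 (Mrpl1), -0.41 (Mrpl41) and, for the abundant Mrpl34 described above, -0.41.

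**Figure D3:**
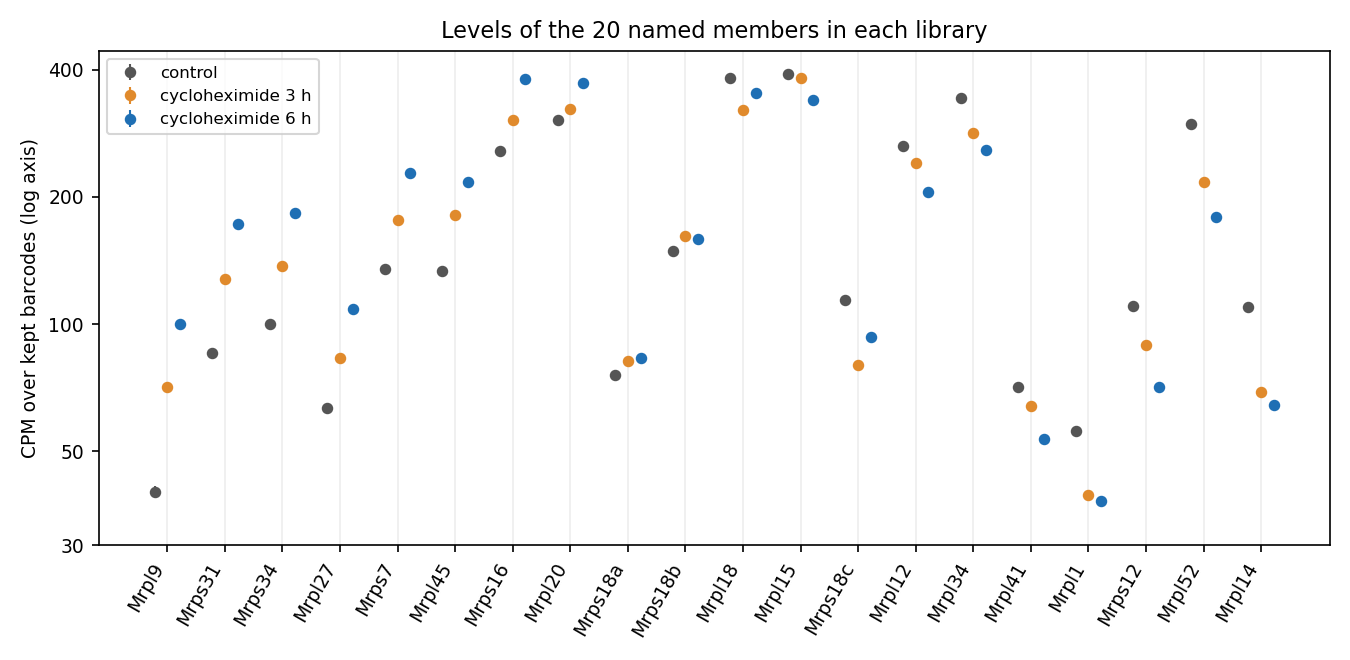
Levels (CPM over kept barcodes, log axis) of 20 mitochondrial ribosomal protein genes in the control (grey), 3 h (orange) and 6 h (blue) libraries, ordered by the 6 h ratio, with 95% exact Poisson intervals that are mostly smaller than the points. Mrpl9 goes from 40.1 to 100.1 CPM at the left and Mrpl14 from 110.1 to 64.4 CPM at the right.

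Between 6 h and 3 h the median log2 ratio of the family was 0.08, against 0.04 over all genes. By the same threshold 7 members were higher at 6 h than at 3 h (background 11.9%), and 1 was lower (background 8.64%). The highest were Mrpl9 (0.49), Mrps31 (0.44) and Mrps34 (0.42), and the lowest were Mrps12 (-0.33), Mrpl52 (-0.28) and Mrpl41 (-0.26). Both sets come from the ends of the 6 h order.

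The proteins of the 2 subunits did not part clearly. The 26 genes of small-subunit proteins summed to 2947, 3067 and 3371 CPM in control, 3 h and 6 h, and the 50 of large-subunit proteins to 6826, 6835 and 7151 CPM. The ratio of the sums was 0.43, 0.45 and 0.47, a small difference toward the small subunit that holds under any scaling. At 6 h the median log2 ratio was 0.12 for the small subunit and 0.13 for the large subunit, so the medians did not show that difference. Mrps30 was placed with the large subunit, where its protein sits in spite of its name, and so was Mrps18a. Mrpl55 and Mrps36 were assigned to neither, so the sums and medians of the subunits leave them out. Mrpl55, named for the large subunit, had a 6 h log2 ratio of 0.43, which is past the threshold. The protein of Mrps36 is also described as a subunit of the oxoglutarate dehydrogenase complex, and its mRNA was at 107, 102 and 102 CPM.

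Bacterial homologues and mitochondria-specific proteins had similar distributions at 6 h. The median log2 ratio was 0.16 for the 15 genes listed as bacterial homologues of the small subunit and 0.09 for the 11 listed as its mitochondria-specific proteins. Mrps18b was listed among the 11, although its protein descends from a bacterial one, and its ratio is their median. The order of these 2 medians thus rests on where Mrps18b is placed. In the large subunit the medians were 0.10 for the 30 bacterial homologues and 0.14 for the 20 mitochondria-specific proteins. Called higher were 5, 3, 9 and 5 genes of these 4 classes, and called lower were 1, 0, 5 and 3, in the same order, with backgrounds of 37.9% and 15.9%. Under TMM 2, 2, 3 and 3 were called higher and 4, 2, 9 and 5 lower, with backgrounds of 21.1% and 33.6%. Each class held genes above and below the control under both scalings.

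Next, 2 structural sets were examined. The first was a chosen list of 6 genes for proteins at the exit of the peptide tunnel (Mrpl22, Mrpl23, Mrpl24, Mrpl39, Mrpl44 and Mrpl45). All 6 were above control at 6 h in CPM, as were 64.1% of all genes tested. Their median log2 ratio was 0.13, with a range from 0.02 to 0.70. The interval of Mrpl23, the lowest of the 6, held 0 (-0.02 to 0.05). Under TMM only 2 of the 6 were above control, against 3081 of the 7608 genes tested. Mrpl17 and Mrpl47 were not in the list and had 6 h ratios of 0.01 and -0.26, so these counts depend on the genes chosen. The stalk that recruits translation factors is built on Mrpl10, Mrpl11, Mrpl12 and Mrpl53 in this list. Mrpl12, which carries the factor-binding role of bacterial L7/L12 and also binds the mitochondrial RNA polymerase, was at 264, 241 and 206 CPM (log2 ratio at 6 h -0.36). It was the only 1 of the 4 that was called (lower, background 15.9%), and the other 3 lay between 0.05 and 0.25.

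Bacterial S18 has 3 descendants in the mammalian mitochondrial ribosome, and their mRNAs differed. Mrps18c, which takes the place of S18 itself, was at 114, 79.9 and 93.4 CPM. Mrps18b, the second of the small subunit, was at 149, 162 and 159 CPM, and Mrps18a, found in the large subunit, at 75.8, 81.9 and 83.1 CPM. At 3 h the log2 ratio was -0.51 (-0.55 to -0.47) for Mrps18c, 0.12 (0.09 to 0.15) for Mrps18b and 0.11 (0.07 to 0.16) for Mrps18a. The gap between Mrps18c and its paralogues does not depend on the scaling, and the side of control on which Mrps18a and Mrps18b lie does, since both are below it under TMM.

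Other genes of the same pathway were taken from lists set beside the family. Of the other proteins of the mitochondrial ribosome, which have names outside the series, 5 were counted (Dap3, Chchd1, Aurkaip1, Ptcd3 and Gadd45gip1), with a median log2 ratio at 6 h of 0.30. Ptcd3, a small-subunit protein, was the highest at 63.9, 76.4 and 89.4 CPM, and Gadd45gip1, of the large subunit, the lowest at 136, 133 and 133 CPM. Called higher were 2 of the 5 (background 37.9%). Under TMM none of the 5 was called (background 21.1% higher and 33.6% lower) and their median was 0.012.

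Factors that assemble the mitochondrial ribosome or modify its RNA had higher ratios than its proteins. Of 22 such genes above 10 CPM, 15 were called higher at 3 h (background 29.5%) and 15 at 6 h (background 37.9%), with median log2 ratios of 0.42 and 0.58. Under TMM the 6 h median was 0.29. Rpusd4, a pseudouridine synthase of the large ribosomal RNA, was the highest among those whose mean level reached 20 CPM, at 24.0, 46.4 and 63.6 CPM (log2 ratio at 6 h 1.41). Dhx30, a helicase needed for large-subunit assembly, was the lowest, at 54.0, 51.5 and 41.4 CPM (-0.38). Malsu1, whose protein docks on that of Mrpl14, was at 86.6, 118 and 135 CPM. The 2 lists were not matched for level. In the control the 25 factors listed summed to 708 CPM and the 78 genes to 9958 CPM. The 6 h median over all genes tested also moved with level, from 0.17 to 0.10 with a floor of 50 CPM.

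The remaining steps of mitochondrial gene expression were mixed. Among 12 mitochondrial aminoacyl-tRNA synthetases the 6 h median log2 ratio was 0.50, and among those whose mean level reached 20 CPM Fars2 was the highest (16.1, 24.1 and 28.6 CPM) and Lars2 the lowest (66.6, 38.0 and 41.5 CPM). In nearly empty barcodes Lars2 stood at 10138 CPM or more in each library, and the part of such free RNA in its values was not tested. Among 14 mitochondrial translation factors it was 0.10, and by the same limit the recycling factor gene Mrrf was the highest at 26.9, 33.8 and 43.5 CPM and the initiation factor gene Mtif2 the lowest at 46.9, 27.1 and 25.01 CPM. Among 11 genes of mitochondrial transcription and RNA handling it was 0.35. Trmt10c, a subunit of mitochondrial RNase P, was at 44.7, 105 and 106 CPM, and Tfam, the factor that packages mitochondrial DNA, at 102, 105 and 88.6 CPM.

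The 13 mitochondrially encoded protein genes, whose mRNAs are what these ribosomes translate, were all lower in CPM. The median log2 ratio was -0.54 for 3 h and -0.97 for 6 h. Per barcode 11 of the 13 were lower at 3 h and all 13 at 6 h. Their summed level was 45697, 35150 and 29407 CPM. Nuclear genes for oxidative phosphorylation were near the control in CPM, with a 6 h median of 0.07 over 79 genes. Cytosolic ribosomal protein genes were at -0.11 over 84 genes. Under TMM these 6 h medians were -0.22, with 68 of the 79 genes below control, and -0.40. Per barcode they were 0.18 and -0.0064. In CPM the 6 h median of the 78 genes (0.13) was thus close to that of nuclear oxidative phosphorylation genes and well above that of mitochondrially encoded genes. None of these differences was tested.

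**Figure D4:**
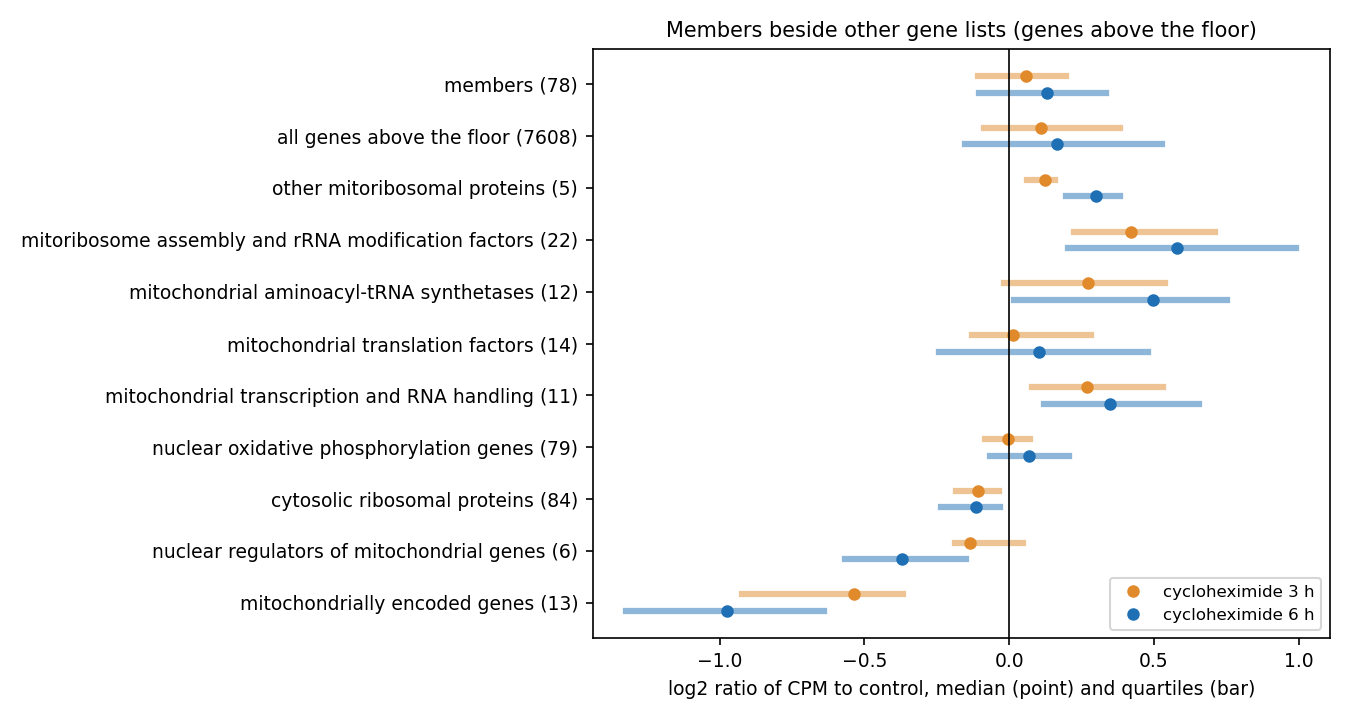
Median (point) and quartiles (bar) of the log2 ratio of CPM to control at 3 h (orange) and 6 h (blue) for the 78 mitochondrial ribosomal protein genes (members), all genes above the floor and 9 other lists, with the number of genes above 10 CPM in brackets. At 6 h the members sit at 0.13, the assembly and modification factors at 0.58 and the mitochondrially encoded genes at -0.97.

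Of 9 regulators known for nuclear genes of mitochondria, 6 were above 10 CPM, and 1 of these was called higher (background 37.9%) and 3 lower (background 15.9%) at 6 h. Under TMM 0 were called higher (background 21.1%) and 5 lower (background 33.6%). Nrf1, the nuclear respiratory factor whose site is common in such promoters, was at 38.0, 33.3 and 27.8 CPM, and Yy1 at 71.7, 63.9 and 58.7 CPM. Gabpa, the DNA-binding subunit of GABP, was at 44.6, 52.4 and 56.2 CPM. Myc was at 35.8, 25.6 and 6.78 CPM, the lowest ratio of the list (-2.40 at 6 h).

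The promoters of the 78 genes were searched for the sites of these factors, using the 300 bases from 250 before to 50 after each start in RefSeq (GRCm38.p6). A promoter was listed for 69 of the 78 genes, with 75 promoters in all, and the table holds 32851. On either strand, the NRF1 site TGCGCATGC was in 8% of the 75 promoters, against 1.52% of all promoters and 3.72% of the promoters of the genes tested here. The ETS site CCGGAAGT, which GABP binds, was in 16%, against 3.89% and 10.3%. The YY1 site AAGATGGCG was in 10.7%, against 1.40% and 4.06%. With only the 250 bases before the start searched, that share was 2.67%, against 1.52% of the promoters of the genes tested. GGGCGG (Sp1) was in 52% against 65.9%, CCAAT (NF-Y) in 40% against 39.3%, and CACGTG (E-box) in 9.33% against 10.9%. None of the 6 motifs contains another. A match is a run of letters and not a measured binding site.

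The median ratio differed little between genes with and without the NRF1, ETS, YY1 or Sp1 motif, and more for the other 2 motifs. For CCAAT the 6 h median was 0.20 for the 27 genes with it and 0.09 for those without. For CACGTG it was 0.28 for the 5 genes with it and 0.12 for those without, and for GGGCGG 0.12 and 0.15. These differences were not tested. At 6 h the median log2 ratio was 0.10 for the 6 genes with the NRF1 site and 0.13 for the 63 without it, 0.12 for the 12 with the ETS site, and 0.15 for the 8 with the YY1 site. The windows below are the 120 bases before the RefSeq start, 5′ to 3′ on the strand of the gene, with the NRF1 or ETS site in capitals. The first set holds 3 of the 6 genes with the NRF1 site, picked for their different 6 h ratios after these were seen. The ratios were 1.32 for Mrpl9, 0.11 for Mrpl22 and 0.01 for Mrpl17. The genes with the site that are not shown had 0.62 (Mrpl32), 0.10 (Mrpl10) and 0.09 (Mrps18b).
Mrpl9 (chr3:94443216-94443335, plus): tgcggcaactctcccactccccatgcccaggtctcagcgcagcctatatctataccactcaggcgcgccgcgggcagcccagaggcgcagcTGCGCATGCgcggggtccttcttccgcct
Mrpl22 (chr11:58171544-58171663, plus): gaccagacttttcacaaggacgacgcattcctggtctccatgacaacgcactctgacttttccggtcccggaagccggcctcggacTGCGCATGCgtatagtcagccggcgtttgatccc
Mrpl17 (chr7:105811088-105811207, minus): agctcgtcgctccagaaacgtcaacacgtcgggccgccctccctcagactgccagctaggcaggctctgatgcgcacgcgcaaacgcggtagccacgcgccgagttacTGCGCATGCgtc
The site starts 29, 34 and 12 bases before the start in these promoters.

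The second set holds 5 other genes from the ends of the 6 h order, Mrps31 and Mrpl27 from among the highest and the 3 lowest, to set high against low. Mrps31 and Mrpl27 had ratios of 1.01 and 0.78, and Mrps12, Mrpl52 and Mrpl14 had -0.64, -0.73 and -0.77.
Mrps31 (chr8:22411220-22411339, plus): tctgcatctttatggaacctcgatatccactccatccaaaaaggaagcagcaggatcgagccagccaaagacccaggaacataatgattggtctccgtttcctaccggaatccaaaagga
Mrpl27 (chr11:94653671-94653790, plus): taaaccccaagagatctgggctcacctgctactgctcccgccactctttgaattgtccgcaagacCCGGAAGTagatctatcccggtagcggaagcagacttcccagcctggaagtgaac
Mrps12 (chr7:28741822-28741941, minus): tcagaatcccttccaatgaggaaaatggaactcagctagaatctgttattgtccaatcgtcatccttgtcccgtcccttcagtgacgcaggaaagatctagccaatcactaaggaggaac
Mrpl52 (chr14:54426789-54426908, plus): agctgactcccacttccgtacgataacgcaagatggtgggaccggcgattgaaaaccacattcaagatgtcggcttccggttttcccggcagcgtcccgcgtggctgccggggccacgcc
Mrpl14 (chr17:45686229-45686348, plus): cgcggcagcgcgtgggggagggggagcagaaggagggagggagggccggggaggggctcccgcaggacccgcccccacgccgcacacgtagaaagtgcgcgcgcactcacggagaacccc
Of these 5 windows 1, that of Mrpl27, held the ETS site, 55 bases before the start, and none held the NRF1 or YY1 site. The full 300-base promoter of Mrpl52 held the ETS site as well, outside the bases shown.

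The start of the transcript was examined as well. Cytosolic ribosomal protein mRNAs are known for a 5′ terminal run of pyrimidines that couples their translation to growth signals. A start with C followed by 4 pyrimidines was found in 0 of the 75 promoters of the 78 genes, in 18.4% of 76 promoters of cytosolic ribosomal protein genes, and in 2.50% of the promoters of all genes tested. The share rests on the RefSeq start, which can miss the main start by a few bases.

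Many of the 78 genes share their promoter region with a gene on the other strand. In GENCODE M21, 33 of 78 (42.3%) had a protein-coding gene starting within 1000 bases in the opposite direction, against 19.9% of the genes tested. One pair, Mrpl46 and Mrps11, joins a large-subunit with a small-subunit gene, with starts 412 bases apart. Mrpl46 was at 57.7, 67.1 and 71.1 CPM and Mrps11 at 54.6, 60.2 and 68.6 CPM, so both had nearly the same level and ratio (0.30 and 0.33 at 6 h).

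The partners of the genes at the ends of the order did not all go with them. Sars2, the mitochondrial seryl-tRNA synthetase gene opposite Mrps12, was at 12.1, 13.7 and 15.8 CPM, higher at 6 h (0.39) where Mrps12 was lower. Tmem63b, opposite Mrpl14, was at 34.1, 27.6 and 21.4 CPM, with a ratio (-0.67) near that of Mrpl14. Gga3, opposite Mrps7, was at 16.0, 28.0 and 32.8 CPM (1.03), and Eme1, opposite Mrpl27, at 25.3, 25.8 and 22.1 CPM (-0.20). Oaz3, opposite Mrpl9 and overlapping it, was nearly absent, at most 0.04 CPM. Over 21 such partners outside the family with at least 10 CPM, the Spearman rho of the 2 ratios at 6 h was 0.11, across gene pairs that share the control library.

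Annotation gave no other clear division. A transcript annotated for nonsense-mediated decay, a pathway that needs translation, was listed for 19 of 78 genes (24.4%), against 32.1% of the genes tested. The 6 h median was 0.16 for the 19 genes and 0.12 for the other 59. Coding length ran from 195 to 1326 bases with a median of 582, and its Spearman rho with the 6 h ratio across the 78 genes was 0.26. For the level in the control the rho was -0.34, and -0.44 over the 72 genes of 50 CPM or more. That level is also the denominator of the ratio, and neither relation was tested. Exons of 3 genes overlapped a counted gene on the same strand: Mrps34 as given above, Mrps24 with Urgcp, and Mrps6 with Slc5a3. The genes lay on 17 chromosomes, with 11 on chromosome 11.

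The summed level varied little between barcodes. Each barcode was thinned to 15000 UMIs so that depth was equal. The summed UMIs of the 78 genes per barcode had quartiles of 137, 148 and 161 (control), 139, 150 and 162 (3 h), and 148, 161 and 172 (6 h). The median barcode had a UMI from 59, 60 and 62 of the 78 genes in the 3 libraries. The excess squared coefficient of variation, the variance beyond Poisson sampling over the squared mean, was 0.00995 (control), 0.00772 (3 h) and 0.00766 (6 h). The 3 distributions had similar widths, and all 3 quartiles were higher at 6 h.

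Depth made little difference to the sum. With barcodes split by UMI count into 3 equal groups, the level lay between 9895 and 9985 CPM (control), 9942 and 10129 CPM (3 h), and 10632 and 10796 CPM (6 h). In CPM the 6 h values did not overlap those of the other libraries. The groups split the barcodes of a single library and are not replicates, so this repeats the difference between the pooled sums. Across the 14 alternatives in the closing section, the log2 ratio of this sum at 6 h to control ran from -0.18 to 0.22.

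Within each library, barcodes with more small-subunit UMIs also had more large-subunit UMIs, with a Pearson r across barcodes of 0.34, 0.31 and 0.35 in control, 3 h and 6 h. The sum of the 78 genes had an r of 0.52, 0.51 and 0.43 with nuclear oxidative phosphorylation genes and of 0.35, 0.48 and 0.36 with cytosolic ribosomal protein genes. With mitochondrially encoded genes it was -0.36, -0.25 and -0.22. Barcodes of 1 library share its preparation and a fixed total of 15000 UMIs, in which more of 1 class leaves less for the others.

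**Figure D5:**
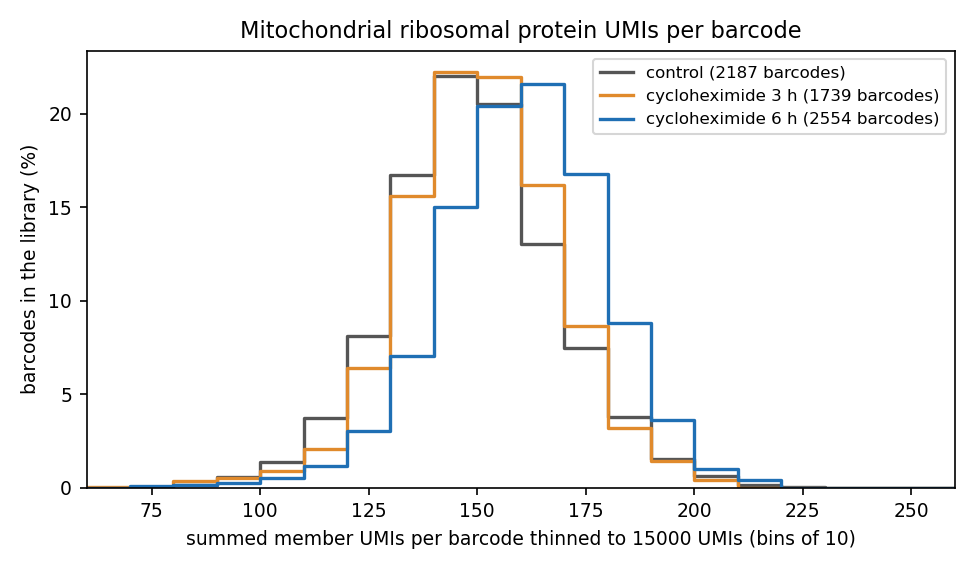
Share of barcodes (%) in each library by summed UMIs of the 78 mitochondrial ribosomal protein genes after thinning to 15000 UMIs, in bins of 10, for control (grey), 3 h (orange) and 6 h (blue). The 3 distributions have similar widths, with medians of 148, 150 and 161.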

How the data were processed

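Per the labels' protocols, cells were detached, frozen, and barcoded with 10x Genomics 3' v3 chemistry. The authors deposited raw counts of UMIs, a matrix of 32285 genes by 6794880 barcodes for each library, made with Cell Ranger 4.0.0 on mm10 per the submitters' processing notes. The annotation used for counting and its handling of strand and shared reads are not given in the sources used here. mm10 is the assembly of the GENCODE M21 and RefSeq tables used for positions (GRCm38), and all 78 identifiers matched GENCODE M21.

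Counts were summed over barcodes with at least 15000 UMIs and 1 to 20% mitochondrially encoded UMIs, holding 111447486 (control), 106842407 (3 h) and 140321458 (6 h) UMIs, and expressed as CPM. Log2 ratios used a prior of 0.5 counts. The genes tested were those whose mean CPM reached 10. A call was a log2 ratio past 0.32 in 1 direction, with 1.5-fold as a stricter rule. Intervals at 95% were exact Poisson for levels and exact conditional binomial for ratios. No doublet caller was run, and an alternative left out barcodes above 2 times the median UMIs. The members, gene lists and rules were chosen with earlier results of these data known. Genes named were the 6 highest and 6 lowest members at 6 h, the 3 highest and lowest between 6 h and 3 h, the 5 most abundant, Mrps18a, Mrps18b, Mrps18c, Mrpl12 and Mrps12, and the highest and lowest gene of at least 20 CPM in each other list; other named genes were chosen after their values were seen. Ratios, intervals and thinning were tested on simulated data. Alternatives are given in the closing section. Python 3.11.15, numpy 2.4.6, scipy 1.17.1, pandas 2.3.3, and edgeR 4.0.16 in R 4.3.3 (TMM factors only) were used.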

Additional observations from a re-analysis of the deposited data

Results flagged for a closer look

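In 10 of the 78 genes the treated libraries lay on opposite sides of the control, below it at 3 h and above it at 6 h, and in 6 of these both counting intervals excluded 0. In the other 4 (Mrpl11, Mrpl28, Mrpl37 and Mrps25) an interval held 0. The share of all genes tested with this pattern was not computed, so the counts cannot be called particular to the family. For the 6 genes the log2 ratios to control at 3 h and 6 h were -0.11 and 0.11 for Mrpl22, -0.089 and 0.15 for Mrpl24, -0.062 and 0.19 for Mrpl33, and -0.033 and 0.12 for Mrpl51. They were -0.12 and 0.051 for Mrps21 and -0.11 and 0.058 for Mrps22. Mrpl22 and Mrpl24 belong to the exit of the peptide tunnel. With 1 library for each time the difference was not tested. None of the ratios passed 0.32 in size. Under TMM all 6 lay below the control at both times, and per barcode all 6 lay above it at both times.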

How the results depend on the processing

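No paired analysis was possible because each condition has 1 library, and for the same reason no library could be left out. The scaling moved the summary values. With TMM factors the median log2 ratio of the 78 genes was -0.11 at 3 h, -0.16 at 6 h and -0.032 between 6 h and 3 h. TMM called 2 higher and 13 lower at 3 h and 10 higher and 21 lower at 6 h. Between the times it called 2 higher and 5 lower (background 5.36% and 15.2%). Per barcode the medians were 0.33, 0.24 and -0.081, with 40 called higher and 1 lower at 3 h and 4 lower at 6 h. Between the times 1 was higher and 6 were lower (background 3.58% and 19.6%). With mitochondrially encoded and cytosolic ribosomal protein genes taken out of the totals, the medians were -0.0096 at 3 h and 0.038 at 6 h. Those of all genes tested were 0.04 and 0.07. This scaling called 7 higher and 8 lower at 3 h and 15 higher at 6 h. The share of all genes called was not computed for it, so these counts have no background. Without limits on the mitochondrially encoded share, which brings in the 62 control barcodes, the 3 h median was -0.00392, and relative to the median of all genes the family lay at -0.13 (3 h) and -0.10 (6 h). A scaling shifts all genes by 1 constant, so under CPM and the 3 other scalings that relative value was -0.05 (3 h) and -0.04 (6 h). The floor moved that difference, to 0.0032 at 3 h and 0.02 at 6 h with a floor of 50 CPM and, at 6 h, to -0.17 with none. Other minimums of UMIs (5000 or 30000), thinning, leaving out deep barcodes, subtracting 10% free RNA, a prior of 5 counts and an upper limit of 10% gave medians and counts of calls close to those of the report. At least 5 of the 6 highest and 5 of the 6 lowest genes at 6 h were the same genes in all 14 alternatives. The 3 other scalings and the removal of the floor cannot change that order, so only the remaining alternatives bear on it. Of the 20 genes named by rule, 17 kept their side of the control at 6 h in each alternative, the exceptions being Mrpl20, Mrps18a and Mrps18b. Across alternatives the 6 h ratio of Mrpl9 lay between 1.03 and 1.43 and that of Mrpl14 between -1.06 and -0.67. The share of promoters with the YY1 motif was 2.67% when only the 250 bases before the start were searched, against 1.52% of the promoters of the genes tested. Variation between cultures and library preparations is unknown.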
